A study of Saccharomyces cerevisiae with 12 samples.

Results

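The genes of de novo purine synthesis in budding yeast, here ADE1, ADE2, ADE4, ADE5,7, ADE6, ADE8, ADE12, ADE13, ADE16 and ADE17, were described across 12 RNA-seq libraries of Saccharomyces cerevisiae. They were selected on their names, by matching each transcript to the RefSeq gene names, and all 10 were found among the 5967 transcripts analysed. Earlier results of these data were known when they were chosen, among them the low level of ADE17 in wild-type cells in perchlorate, so the response of wild-type cells to perchlorate is described, with no p-value printed and nothing inferred from its calls. All 10 passed the filter on low values in every comparison, and none of their coding sequences overlaps another annotated gene.

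The study asked how yeast responds to sodium perchlorate, an oxidising salt found in Martian soil, and how cells recover from a shock wave. Wild-type cells (WT) were BY4741, a laboratory strain of mating type a. The mutant, edc3∆lsm4∆C, lacks EDC3 and the Q/N-rich C-terminal domain of Lsm4p, both linked to the assembly of mRNA granules called P-bodies. Each strain was grown untreated and in continuous 100 mM NaClO4, and WT was grown unshocked and after a shock of 5.6 Mach intensity. All 6 groups had 2 libraries, and all cultures were grown at 30 °C in medium without uracil to an OD600 of 0.4 to 0.5 before RNA was taken by the hot phenol method. The labels do not say how much adenine the medium held, how many clones the mutant stands for, or that replicates were separate cultures, and if they were not, the p-values reflect technical spread alone.

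The purine ring is built on phosphoribosyl pyrophosphate (PRPP) in a chain of enzymatic steps that ends at inosine monophosphate (IMP), from which separate branches lead to AMP and GTP. In budding yeast most of the ADE genes are switched on together by the transcription factors Bas1 and Pho2 when adenine is scarce, and the interaction of the pair is promoted by the pathway intermediates SAICAR and AICAR. Bas1 and Pho2 also act on several histidine genes, since histidine synthesis releases AICAR. Cells blocked at ADE1 or ADE2 accumulate a red pigment, which made these genes familiar markers.

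The libraries held 14108937 to 18360737 reads, and the 10 most abundant transcripts took 9.13 to 15.5% of them. Mutant libraries held 1 to 4 EDC3 reads, and WT libraries 745 to 1365. LSM4 had 696 to 710 reads in the mutant libraries and 509 to 1100 in WT; a total for the gene does not show whether its end is missing, so the truncation was not checked. The strains differed at other loci too. LEU2 had 5366 to 6398 reads in the mutant libraries and 0 to 23 in the WT libraries, and MET17 had 8873 to 30889 against 0 to 52. The a-cell pheromone gene MFA1 had 6 to 13 reads in the mutant libraries and 776 to 5490 in WT, whereas the alpha-cell pheromone gene MF(ALPHA)1 had 6140 to 22817 in the mutant and 4 to 111 in WT. The mutations, these markers and mating type therefore cannot be told apart in any comparison of the strains. URA3, absent from BY4741, had 2071 to 4198 reads in the WT libraries and 6739 to 8675 in the mutant libraries. The labels name no plasmid, and this difference cannot be told apart from the others between the strains either. In RNA from a whole culture, fewer cells expressing a gene and less RNA per cell cannot be told apart.

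Promoter sequence is shown for the paralogs ADE17 and ADE16, which encode the same pair of activities (AICAR transformylase and IMP cyclohydrolase) and had the largest and the smallest difference in WT in perchlorate. The sequences are those of the RefSeq R64 genome, 350 to 51 bases before the start codon, read 5′ to 3′ on the coding strand of the gene. Both genes lie on the minus strand, ADE17 with its window at chrXIII:509331-509630 and ADE16 with its window at chrXII:201366-201665. The build behind the deposited tables is not given in the sources used here, but all 10 versioned transcript accessions occur in this annotation. Capitals mark TGACTC, the core of the site bound by Bas1, searched on both strands.
ADE17: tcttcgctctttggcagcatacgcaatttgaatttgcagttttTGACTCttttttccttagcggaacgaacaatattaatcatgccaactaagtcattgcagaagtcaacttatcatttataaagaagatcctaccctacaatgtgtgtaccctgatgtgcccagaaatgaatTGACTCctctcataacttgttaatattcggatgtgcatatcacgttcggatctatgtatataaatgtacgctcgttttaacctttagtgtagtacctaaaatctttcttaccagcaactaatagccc
ADE16: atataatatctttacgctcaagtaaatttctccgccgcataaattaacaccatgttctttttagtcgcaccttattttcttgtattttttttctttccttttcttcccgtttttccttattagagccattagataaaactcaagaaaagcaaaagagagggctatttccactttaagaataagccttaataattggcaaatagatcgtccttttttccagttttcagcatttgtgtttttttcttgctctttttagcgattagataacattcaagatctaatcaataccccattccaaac
The ADE17 window holds 2 matches, 302 and 172 bases before the start codon, and the ADE16 window holds none. A match is a description of letters and not a bound site. ADE4, whose window also holds none, had a log2 fold change of -1.10 in WT in perchlorate, as did ADE5,7 with 2 matches. A link between matches and levels was not tested.

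The core occurred in the windows of 8 of the 10 ADE genes, all but ADE4 and ADE16, against 483 of 5947 windows of the same length over all genes (8.12%). At least 2 matches were present for ADE1, ADE2, ADE5,7, ADE8 and ADE17, and for 43 windows over all genes (0.723%). The longer run TGACTCA, which contains the core and is the consensus of the amino-acid starvation activator Gcn4, was present only for ADE12 among the 10 and in 169 windows over all genes (2.84%). Matches are shown with 7 bases on each side for ADE1, whose pair points in opposite directions (chrI:169149-169154 and chrI:169158-169163, plus strand), for ADE8, which holds a pair although its level was nearly the same in WT with and without perchlorate (chrIV:1289035-1289040 and chrIV:1289021-1289026, minus strand), and for ADE12, whose match extends to the longer run (chrXIV:234191-234196, plus strand). Capitals mark the core, which reads GAGTCA where it lies on the opposite strand.
ADE1, 221 bases before the start codon: tattcacGAGTCAgtctgac
ADE1, 212 bases before the start codon: gtcagtcTGACTCttgcgag
ADE8, 176 bases before the start codon: gaatgagTGACTCgttgcta
ADE8, 162 bases before the start codon: ttgctagTGACTCtgacctg
ADE12, 217 bases before the start codon: tttcattGAGTCAcagatta

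**Figure D1:**
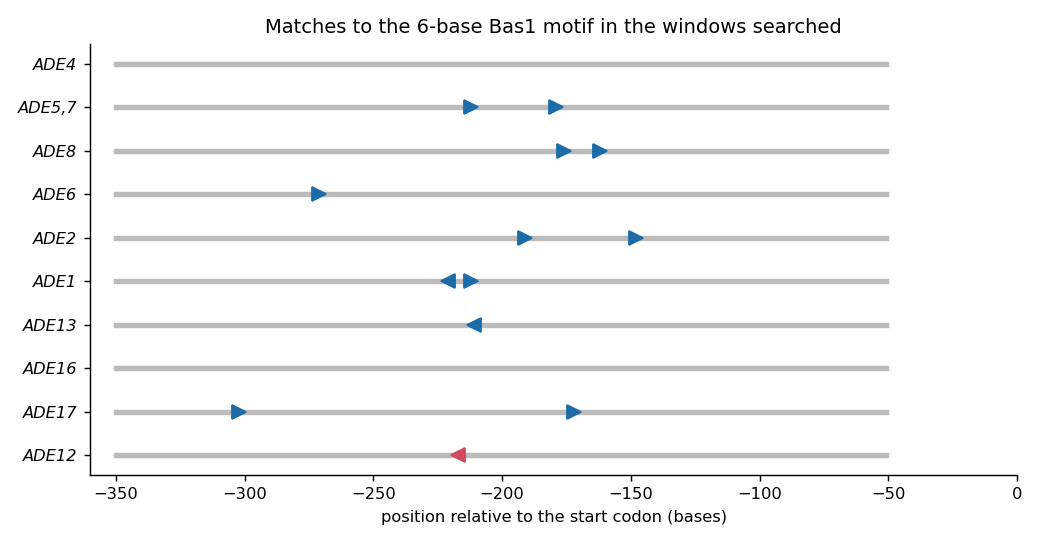
Each grey bar is the window from 350 to 51 bases before the start codon of one ADE gene (horizontal axis, bases), and each arrowhead is a match to the core, pointing right on the coding strand and left on the other. The red arrowhead at ADE12 is the match that extends to the longer run, and the ADE4 and ADE16 windows hold no match.

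Levels were followed as reads of a transcript per 1000000 reads of its library (RPM), computed from whole reads recovered from the deposited values, since the authors normalized each table separately. The 10 genes together held 3463 and 3743 RPM in untreated WT, 2040 and 1832 in WT in perchlorate, 1928 and 1848 in the untreated mutant, and 2006 and 1927 in the mutant in perchlorate. They held 4432 and 4778 RPM in unshocked WT and 4045 and 3915 in shocked WT. The 6 WT libraries grown without perchlorate were thus all at or above 3463 RPM, and the 6 other libraries all at or under 2040 RPM. Untreated and unshocked WT, both without perchlorate or shock, also differed. Their means were 535 and 904 RPM for ADE17, 182 and 370 for ADE2, and 191 and 338 for ADE1. ADE5,7 was at 714 in both, and ADE6 was lower unshocked, at 536 and 511. The cause of this difference was not tested.

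The early steps begin with ADE4, the amidotransferase that commits PRPP to the pathway. ADE4 had 137 and 176 RPM in untreated WT, 82.5 and 75.9 in WT in perchlorate, 105 and 117 in the untreated mutant, and 95.3 and 90.6 in the mutant in perchlorate. In the shock experiment ADE4 had 225 and 237 RPM unshocked and 182 and 229 shocked, the one pair of neighbouring groups of this gene that overlapped. ADE5,7, a fused enzyme that makes glycinamide ribotide (GAR) and later closes the imidazole ring, had 655 and 774 RPM in untreated WT. Its other groups of the perchlorate experiment were all lower and close to each other, at 361 and 365 in WT in perchlorate, 380 and 366 in the untreated mutant, and 387 and 388 in the mutant in perchlorate. Unshocked WT had 679 and 748 RPM of ADE5,7 and shocked WT 829 and 781.

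ADE8, the GAR transformylase, did not follow the other early genes. It had 61.4 and 71.9 RPM in untreated WT, 66.3 and 68.6 in WT in perchlorate, 83.1 and 87.4 in the untreated mutant, and 103 and 109 in the mutant in perchlorate. Its highest group was thus the mutant in perchlorate, whose libraries overlapped those of shocked WT (107 and 93.2) and lay above those of unshocked WT (101 and 92.7). ADE6, which makes formylglycinamidine ribotide, had 515 and 556 RPM in untreated WT, 302 and 265 in WT in perchlorate, 350 and 342 in the untreated mutant, and 328 and 293 in the mutant in perchlorate. Unshocked WT had 518 and 503 RPM of ADE6 and shocked WT 574 and 589. The groups of ADE6 in perchlorate overlapped between the strains.

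ADE2, the carboxylase of the imidazole ring, had 183 and 181 RPM in untreated WT, 129 and 92.8 in WT in perchlorate, 108 and 99.7 in the untreated mutant, and 118 and 91.7 in the mutant in perchlorate. ADE2 was highest in unshocked WT, at 356 and 385 RPM, and had 196 and 221 in shocked WT. ADE1, which makes SAICAR, had 186 and 197 RPM in untreated WT, 112 and 96.1 in WT in perchlorate, 88.4 and 80.9 in the untreated mutant, and 118 and 117 in the mutant in perchlorate. None of the neighbouring groups of ADE1 overlapped, with 321 and 354 RPM in unshocked WT and 274 and 295 in shocked WT. ADE13, the adenylosuccinate lyase that acts both before IMP and in the AMP branch, had 548 and 576 RPM in untreated WT, 275 and 258 in WT in perchlorate, 260 and 241 in the untreated mutant, and 254 and 254 in the mutant in perchlorate. Unshocked WT had 652 and 699 RPM of ADE13 and shocked WT 627 and 594. ADE12, the adenylosuccinate synthetase that opens the AMP branch, had 345 and 375 RPM in untreated WT, 231 and 228 in WT in perchlorate, 195 and 181 in the untreated mutant, and 232 and 237 in the mutant in perchlorate. ADE12 was at 387 and 435 RPM in unshocked WT and 395 and 331 in shocked WT, which overlapped.

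The paralogs that finish IMP differed most from each other. ADE17 had 489 and 582 RPM in untreated WT, 119 and 96.4 in WT in perchlorate, 90.6 and 69.7 in the untreated mutant, and 69.3 and 71.8 in the mutant in perchlorate. Unshocked WT had 851 and 957 RPM of ADE17 and shocked WT 597 and 521. The highest ADE17 library was 13.8 times the lowest, the widest range of the 10 genes, and the mutant groups overlapped each other. ADE16 had 344 and 253 RPM in untreated WT, 363 and 288 in WT in perchlorate, 268 and 263 in the untreated mutant, and 302 and 276 in the mutant in perchlorate. With 341 and 367 RPM in unshocked WT and 265 and 259 in shocked WT, its highest library was 1.45 times its lowest, the narrowest range of the 10. For the other 8 genes this ratio ran from 1.78 for ADE8 to 4.38 for ADE1.

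**Figure D2:**
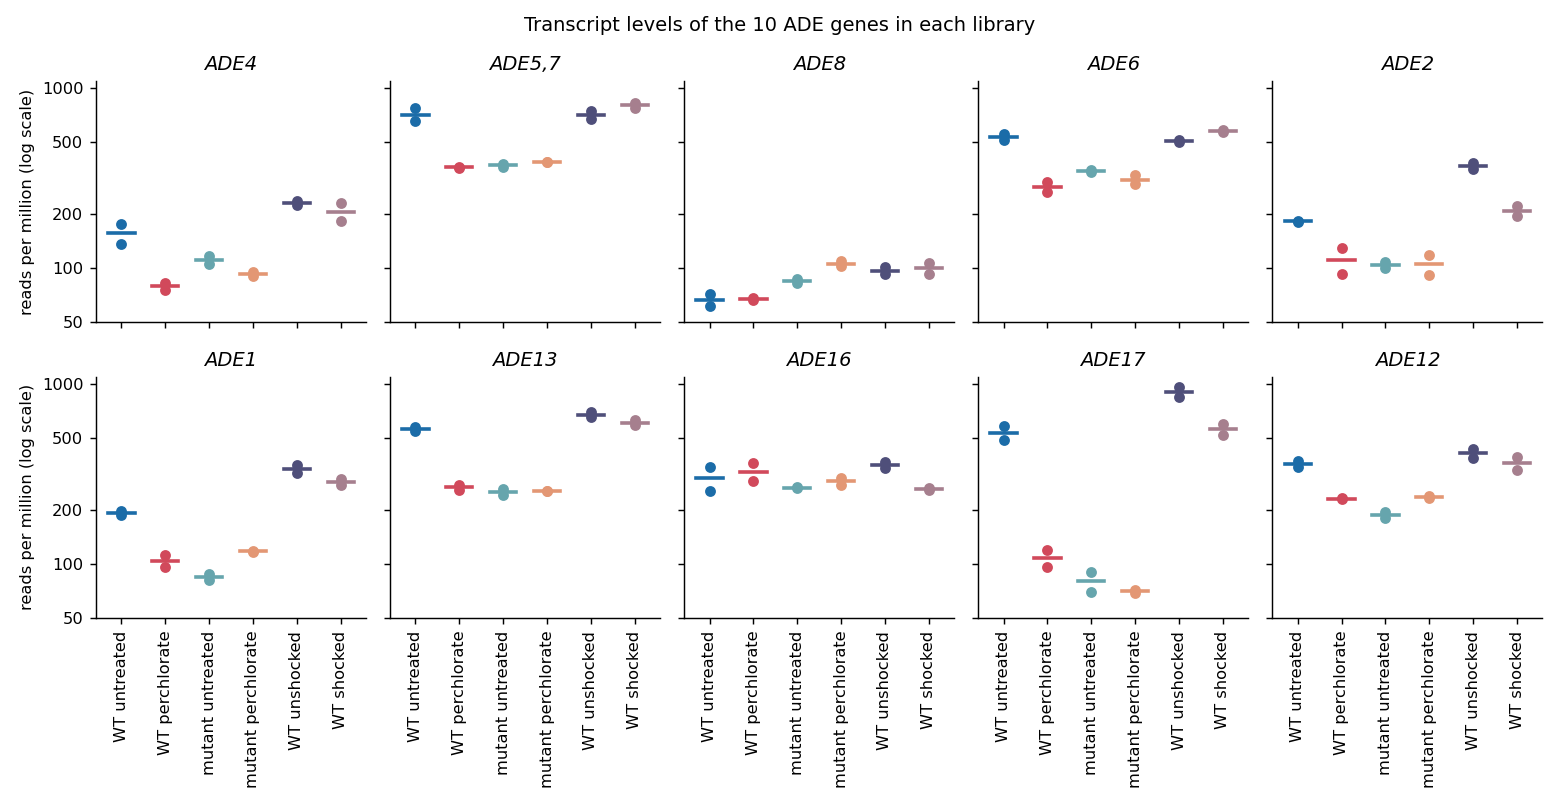
Points are libraries and lines are the means of the 2 libraries of each group, in RPM on a log scale, 1 panel for each gene in the order of the pathway. ADE17 spans 69.3 to 957 RPM, whereas ADE16 stays between 253 and 367 RPM.

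Per kb of coding sequence, which allows levels to be compared between genes, ADE13 was the most abundant in untreated WT at a mean of 388 RPM per kb, followed by ADE17 at 301 and ADE5,7 at 297. In WT in perchlorate ADE17 had 60.4 RPM per kb, and ADE13, ADE16 and ADE12 were the highest at 184, 183 and 176. In the mutant in perchlorate ADE17 was the lowest of the 10 at 39.7 RPM per kb, and ADE12 the highest at 180. The place of ADE17 in the order of abundance thus moved from among the most abundant to the lowest between these groups.

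The ratio of ADE17 to ADE16 reads, each divided by coding length, gives their relative level within each library and does not depend on scaling. It was 1.42 and 2.3 in untreated WT, 0.327 and 0.335 in WT in perchlorate, 0.338 and 0.264 in the untreated mutant, and 0.229 and 0.26 in the mutant in perchlorate. It was 2.49 and 2.6 in unshocked WT and 2.25 and 2.01 in shocked WT. ADE17 was therefore the more abundant paralog in all 6 WT libraries without perchlorate, and ADE16 in the 6 others. The coding sequences, 1779 and 1776 bases long, are identical at 74.7% of aligned bases, their longest shared exact run is 19 bases, and they share 0 runs of 50 bases. How reads that match both copies were assigned is not given in the sources used here.

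**Figure D3:**
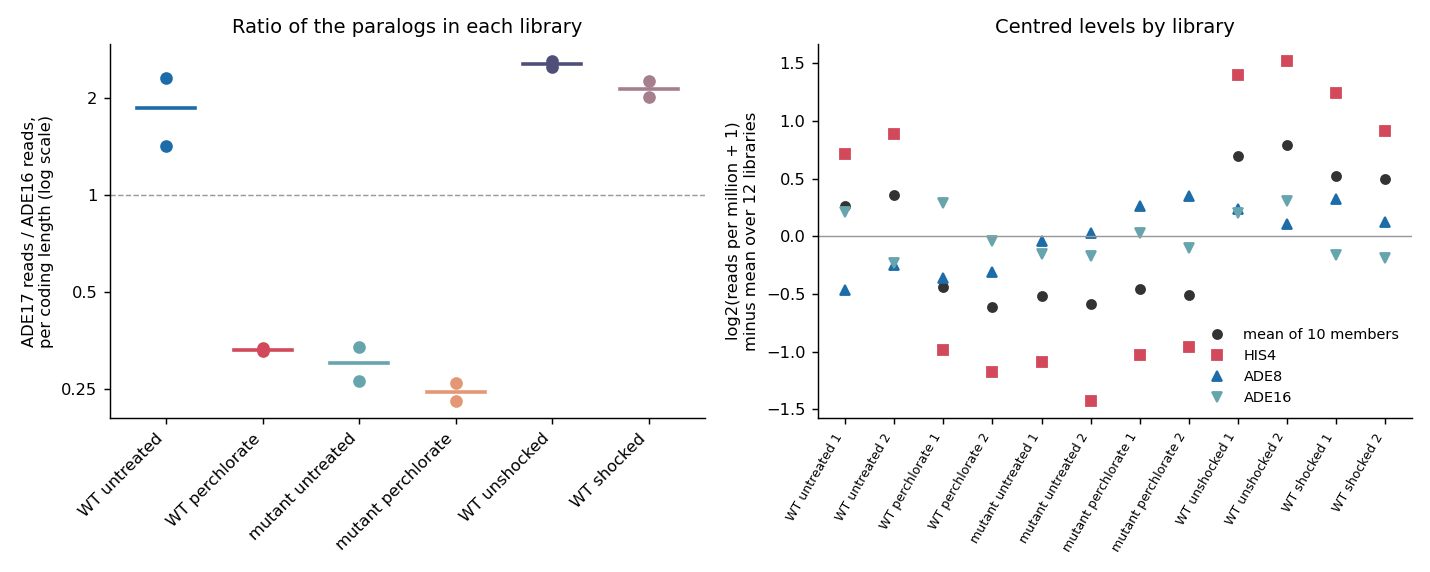
Left, the ratio of ADE17 to ADE16 reads per coding length in each library (points) with group means (lines) on a log scale, where the dashed line marks equal levels. Right, log2 of RPM plus 1 minus its mean over the 12 libraries for the mean of the 10 genes, HIS4, ADE8 and ADE16; HIS4 moves with the mean of the 10 genes, and ADE8 and ADE16 do not.

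Across the 12 libraries, 8 of the genes ran together. The Pearson correlation of each gene with the mean of the other 9, on log2 of RPM plus 1, was 0.99 for ADE13, 0.97 for ADE1 and ADE17, 0.95 for ADE5,7 and ADE12, 0.94 for ADE2, 0.93 for ADE4 and 0.91 for ADE6. It was 0.20 for ADE16 and 0.14 for ADE8. These values describe 12 libraries that form 6 groups and share their depth and their strain and treatment differences. They also hold the difference between the perchlorate and shock experiments, and they carry no test.

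In WT, perchlorate was accompanied by lower levels of 8 of the 10 ADE genes, with a median log2 fold change over the 10 of -1.03 against 0.00 over all transcripts tested. ADE17 was the furthest apart at -2.44 ± 0.15 (SE, n = 2 per group), 5.44-fold lower. The next were ADE13 at -1.20 ± 0.13, ADE4 at -1.10 ± 0.16 and ADE5,7 at -1.10 ± 0.14. ADE6 was at -1.05 ± 0.13, ADE1 at -1.01 ± 0.13, ADE2 at -0.86 ± 0.15 and ADE12 at -0.77 ± 0.13. Every library of these 8 genes in perchlorate was below both untreated libraries. ADE16 was at 0.00 ± 0.16 and ADE8 at -0.11 ± 0.15, and the groups of both overlapped. These log2 fold changes were taken between the deposited normalized values, on the log2(value + 1) scale, with limma. For reference, the call rule used in the other comparisons (a Benjamini-Hochberg adjusted p under 0.05) takes in these 8 genes, and over all 5664 transcripts it called 12.1% lower and 14.3% higher. Nothing is read from that count, because values of this contrast were known when the genes were chosen. The authors' deposited table placed 8 of the genes in the class Down and ADE8 and ADE16 in the neutral class; these classes rest on the log2 fold change alone, with the neutral one running from -0.50 to 0.50.

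In the mutant, perchlorate was accompanied by small differences in both directions. ADE1 rose by 0.38 ± 0.10 (adjusted p = 0.0159, limma) and was higher in both treated libraries than in either untreated one. ADE4 fell by 0.35 ± 0.09 (adjusted p = 0.0216, limma), again with no overlap between the groups. So 1 of 10 was called lower and 1 higher, close to the shares over the 5670 transcripts tested, of which 15.7% were called lower and 18% higher. The 8 others did not pass, and their log2 fold changes ran from -0.26 ± 0.13 for ADE17 and -0.25 ± 0.09 for ADE6 to 0.22 ± 0.10 for ADE8 and 0.23 ± 0.10 for ADE12. ADE2 was at -0.09 ± 0.12, ADE13 at -0.07 ± 0.09, ADE5,7 at -0.04 ± 0.09 and ADE16 at 0.03 ± 0.09. The median over the 10 was -0.05. With groups of 2 the calls rested on single libraries: the adjusted p of ADE1 was 0.0718 without untreated replicate 2 and 0.0523 without treated replicate 2 (0.00253 to 0.0718 over 12 alternatives, limma, edgeR and DESeq2). That of ADE4 was 0.11 without untreated replicate 2 and 0.0549 without treated replicate 1 (0.00457 to 0.11 over 12 alternatives), and without untreated replicate 2 ADE17 passed at -0.46. Scaled by total reads instead, 3 genes (ADE1, ADE8 and ADE12) were called higher and ADE4 was no longer called. The authors' deposited table placed all 10 genes in its neutral class by fold change, although its q-values were 0.014 for ADE1 and 0.024 for ADE4.

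The difference between these responses, the log2 fold change in the mutant minus that in WT, was 2.18 ± 0.22 for ADE17, 1.39 ± 0.15 for ADE1, 1.13 ± 0.13 for ADE13 and 1.06 ± 0.16 for ADE5,7. It was 1.00 ± 0.14 for ADE12, 0.80 ± 0.14 for ADE6, 0.77 ± 0.20 for ADE2 and 0.75 ± 0.19 for ADE4. For ADE8 it was 0.33 ± 0.17 and for ADE16 0.03 ± 0.20. The call rule takes in the first 6, and over the 5615 transcripts tested it called 1.89% higher and 0.695% lower. ADE6 lost its place in 5 of the 8 fits that left out a library, and ADE4 gained one without untreated WT replicate 1. The untreated mutant was already below untreated WT for the first 6 genes, so the contrast also holds that difference between the untreated strains. This contrast holds the WT response that was known when the genes were chosen, so it too is a description.

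**Figure D4:**
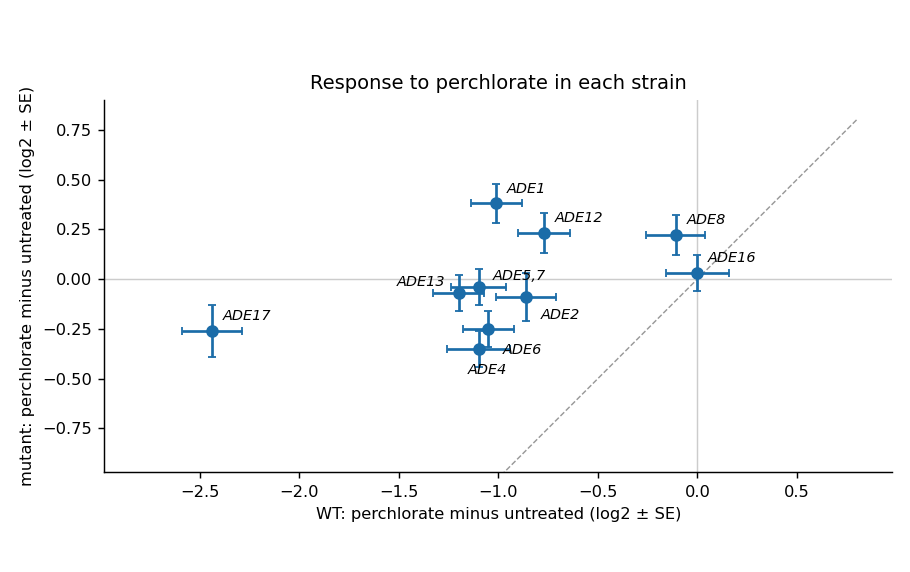
The log2 fold change between perchlorate and untreated cells, with standard errors, in WT (horizontal) and in the mutant (vertical); the dashed line marks equal responses. ADE8 and ADE16 lie nearest the line, and the other 8 genes lie between -0.77 and -2.44 in WT and between -0.35 and 0.38 in the mutant.

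Without treatment, 8 of the 10 ADE genes were lower in the mutant than in WT, with a median log2 difference of -1.04 against 0.01 over all transcripts tested. ADE17 was lower by the most, at -2.91 ± 0.17 (adjusted p = 0.000156, limma), or 7.53-fold. ADE1 was at -1.34 ± 0.11 (adjusted p = 0.000748) and ADE13 at -1.33 ± 0.10 (adjusted p = 0.000508), both over 2-fold. ADE12 at -1.11 ± 0.11 (adjusted p = 0.00131) and ADE5,7 at -1.10 ± 0.12 (adjusted p = 0.00178) were lower by similar amounts. The differences of ADE2, at -0.98 ± 0.11 (adjusted p = 0.0017), and ADE6, at -0.80 ± 0.10 (adjusted p = 0.00272), were smaller. ADE4 had the smallest difference that passed, at -0.65 ± 0.16 (adjusted p = 0.0303), and it no longer passed without untreated mutant replicate 1 (-0.58, adjusted p = 0.064) or scaled by total reads (-0.49, adjusted p = 0.0587), over a range of 1.53e-09 to 0.064. Over the 5665 transcripts tested 11.6% were called lower and 11% higher. ADE16 was at -0.32 ± 0.14 (adjusted p = 0.159) and passed without untreated WT replicate 2 (-0.51, adjusted p = 0.0169; 0.00265 to 0.483 over 12 alternatives), and ADE8 was at 0.19 ± 0.13 (adjusted p = 0.349). The untreated WT libraries enter this comparison and the WT perchlorate one alike, so the values of the comparisons are not independent. Because WT perchlorate results were known when the genes were chosen, the adjusted p-values here describe the fits and are no independent test. Genotype and the markers and mating type listed above cannot be told apart here.

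In perchlorate, 2 of the 10 ADE genes differed between the strains. ADE17 was lower in the mutant, at -0.75 ± 0.11 (adjusted p = 0.000891, limma), and ADE8 was higher, at 0.50 ± 0.11 (adjusted p = 0.00736). Neither group pair overlapped. With 1 of 10 lower and 1 higher, the counts were again near the shares over the 5701 transcripts tested, 15.6% lower and 16.3% higher. ADE16 was at -0.32 ± 0.11 (adjusted p = 0.0526) and passed without WT replicate 2 (-0.43, adjusted p = 0.0349; 0.00174 to 0.367 over 12 alternatives). The others were at -0.22 ± 0.14 for ADE2, -0.22 ± 0.09 for ADE13, -0.12 ± 0.10 for ADE12, -0.06 ± 0.10 for ADE5,7, -0.02 ± 0.10 for ADE6, 0.02 ± 0.09 for ADE1 and 0.08 ± 0.09 for ADE4, with adjusted p from 0.0959 to 0.881. The median over the 10 was -0.09 against -0.01 over all transcripts. Scaling by total reads moved the median of all transcripts to 0.15 in this comparison, 0.18 between the untreated strains and 0.13 in WT in perchlorate. The WT and mutant libraries in perchlorate also enter the treatment comparisons, so the adjusted p-values here are no independent test of the genes either.

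**Figure D5:**
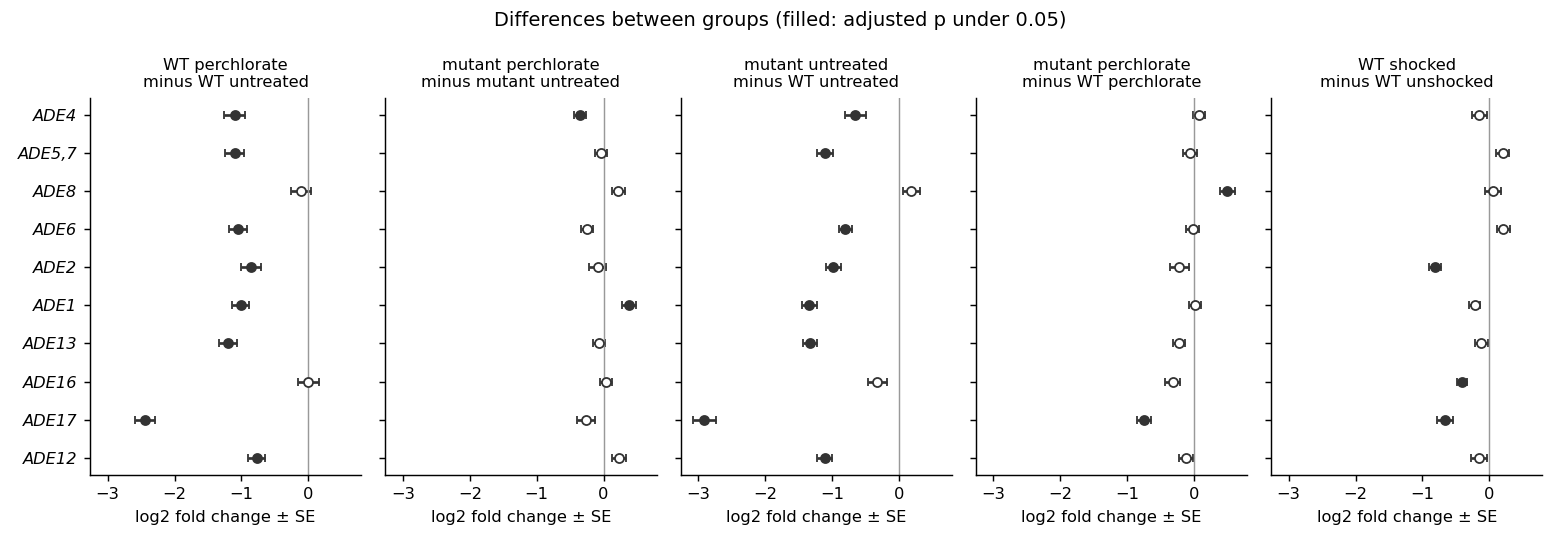
Log2 fold changes with standard errors for the 10 genes, 1 panel for each comparison, with filled points past an adjusted p of 0.05. ADE17 is filled in every panel except that of the mutant in perchlorate, and ADE2, ADE16 and ADE17 are the 3 filled points after shock.

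After shock, 3 of the 10 ADE genes were lower and the rest did not pass. ADE2 fell by 0.81 ± 0.09 (adjusted p = 0.00147, limma), 1.75-fold, and was lower in both shocked libraries than in either unshocked one. ADE17 fell by 0.67 ± 0.12 (adjusted p = 0.00805) and ADE16 by 0.41 ± 0.08 (adjusted p = 0.0132), so that both paralogs were lower. Among the 5668 transcripts tested 17.3% were called lower and 18.1% higher, beside the 3 of 10 ADE genes called lower. ADE6 at 0.21 ± 0.10 (adjusted p = 0.138) and ADE5,7 at 0.20 ± 0.10 (adjusted p = 0.185) had the highest values, although neither passed. The 5 others ran from -0.22 ± 0.08 for ADE1 (adjusted p = 0.0811) to 0.06 ± 0.12 for ADE8 (adjusted p = 0.709), with ADE12 at -0.16 ± 0.12, ADE4 at -0.15 ± 0.11 and ADE13 at -0.12 ± 0.10. The calls of ADE16 and ADE17 were lost without either unshocked library. ADE16 then had an adjusted p of 0.0811 or 0.0844 (0.00125 to 0.0844 over 12 alternatives) and ADE17 one of 0.0552 or 0.0709 (4.95e-06 to 0.0709). The median over the 10 was -0.16. These 4 libraries enter no other comparison. The authors' deposited table placed ADE2 and ADE17 in its class Down, and ADE16 in the neutral class at a log2 fold change of -0.41 with a q-value of 0.00132.

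The genes around the pathway were followed in the same fits. Their lists too were chosen with earlier results of these data known. The counts and adjusted p-values given for them therefore describe the fits and are no independent test. PRPP, its starting substrate, is made by the products of PRS1 to PRS5. After shock 4 of these 5 rose, beside 18.1% of all transcripts, with PRS3 up by 0.83 ± 0.08 (adjusted p = 0.00115, limma), PRS4 by 0.73 ± 0.10 (adjusted p = 0.00293) and PRS1 by 0.72 ± 0.08 (adjusted p = 0.00164). In every other comparison at most 1 of the 5 was called, and the medians ran from -0.31 to 0.22.

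The GTP branch from IMP is opened by IMP dehydrogenase, encoded by IMD2, IMD3 and IMD4, and continued by GUA1 and GUK1. The IMD genes are related copies whose sequences were not compared here, and how reads that match more than 1 copy were assigned is not given. IMD1 was not analysed here. In WT in perchlorate 4 of the 5 genes were lower, beside 12.1% of all transcripts, with IMD2 at -3.06 ± 0.20, IMD3 at -0.97 ± 0.13 and IMD4 at -0.69 ± 0.14. In the mutant in perchlorate 4 of 5 fell, beside 15.7% of all transcripts, with IMD2 at -0.80 ± 0.12 (adjusted p = 0.00131, limma) and IMD4 at -0.67 ± 0.10 (adjusted p = 0.000965), a comparison in which the ADE genes had a median of -0.05. Between the untreated strains 2 of the 5 were lower in the mutant, beside 11.6% of all transcripts. They were IMD3 at -0.62 ± 0.09 (adjusted p = 0.00457) and GUA1 at -0.43 ± 0.09 (adjusted p = 0.0199). In perchlorate 1 of the 5 was higher in the mutant than in WT and 1 lower, beside 16.3% and 15.6% of all transcripts. IMD2 was the higher, at 1.95 ± 0.19 (adjusted p = 0.000117), and IMD4 the lower, at -0.36 ± 0.11 (adjusted p = 0.0366). After shock 4 of the 5 rose, beside 18.1% of all transcripts, with IMD4 up by 1.15 ± 0.11 (adjusted p = 0.000984), GUA1 by 0.95 ± 0.10 (adjusted p = 0.00147) and IMD3 by 0.51 ± 0.12 (adjusted p = 0.022).

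One-carbon and glycine genes (ADE3, MTD1, SHM1, SHM2 and GCV1 to GCV3) supply the formyl groups and glycine of the ring. Of these 7, 5 were lower in the untreated mutant than in untreated WT, beside 11.6% of all transcripts, led by SHM2, a serine hydroxymethyltransferase, at -1.61 ± 0.17 (adjusted p = 0.00161, limma), and GCV2, a subunit of the glycine cleavage system, at -1.20 ± 0.15 (adjusted p = 0.00307). In the mutant in perchlorate 4 of the 7 rose, beside 18% of all transcripts, with GCV1 up by 1.20 ± 0.11 (adjusted p = 4.8e-05), GCV2 by 1.13 ± 0.10 (adjusted p = 6.06e-05) and SHM2 by 0.86 ± 0.09 (adjusted p = 0.00017). In WT in perchlorate, where 12.1% of all transcripts were lower and 14.3% higher, 1 of the 7 was lower, ADE3 at -0.44 ± 0.13, and 1 higher, GCV1 at 0.75 ± 0.14. In perchlorate 3 of the 7 were lower in the mutant than in WT, beside 15.6% of all transcripts. They were MTD1 at -0.61 ± 0.11 (adjusted p = 0.00342), GCV2 at -0.48 ± 0.11 (adjusted p = 0.0104) and SHM2 at -0.40 ± 0.11 (adjusted p = 0.0247). After shock 3 of the 7 fell and 1 rose, beside 17.3% and 18.1% of all transcripts, with MTD1 down by 0.86 ± 0.20 (adjusted p = 0.0212) and GCV1 by 0.83 ± 0.16 (adjusted p = 0.0109).

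Salvage and interconversion genes (13 tested) take up and recycle bases instead of building them. After shock 5 of the 13 rose and 1 fell, beside 18.1% and 17.3% of all transcripts. The adenine deaminase gene AAH1 was up by 1.38 ± 0.10 (adjusted p = 0.000814, limma) and the adenine phosphoribosyltransferase gene APT1 by 0.72 ± 0.09 (adjusted p = 0.0026). In WT in perchlorate 3 of the 13 were lower and 1 higher, beside 12.1% and 14.3% of all transcripts. The furthest down was HPT1, the hypoxanthine-guanine phosphoribosyltransferase gene, at 0.499 times its untreated level. AAH1 was at -0.65 ± 0.15 and the purine-cytosine permease homolog FCY22 at 1.06 ± 0.33. FCY22 had few reads, at 5.59 and 2.62 RPM in untreated WT and 7.68 and 10.1 in WT in perchlorate. In the mutant in perchlorate 3 fell and 1 rose, beside 15.7% and 18% of all transcripts, and AAH1 was down by 0.54 ± 0.13 (adjusted p = 0.0135). Between the untreated strains 5 were lower and 2 higher in the mutant, beside 11.6% and 11% of all transcripts. The furthest down was AAH1 at -0.66 ± 0.13 (adjusted p = 0.0151), and the furthest up was APT2 at 1.29 ± 0.14 (adjusted p = 0.00158). In perchlorate 3 were lower and 3 higher in the mutant, beside 15.6% and 16.3% of all transcripts.

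The histidine genes HIS1 to HIS7 encode the pathway that releases AICAR. In WT in perchlorate 5 of the 7 were lower, beside 12.1% of all transcripts, led by HIS4 at -2.02 ± 0.14 and HIS1 at -1.21 ± 0.13. Between the untreated strains 2 of the 7 were lower in the mutant, beside 11.6% of all transcripts, HIS4 at -2.24 ± 0.15 (adjusted p = 0.000314, limma) and HIS1 at -0.48 ± 0.10 (adjusted p = 0.0186). In the mutant in perchlorate 1 of the 7 rose, beside 18% of all transcripts, HIS5 by 0.36 ± 0.10 (adjusted p = 0.023). After shock 1 of the 7 rose, beside 18.1% of all transcripts, HIS6 by 0.64 ± 0.10 (adjusted p = 0.00551). Both counts were near the shares over all transcripts. In perchlorate 4 of the 7 were higher in the mutant than in WT, beside 16.3% of all transcripts. Among them were HIS5 at 1.13 ± 0.10 (adjusted p = 7.88e-05, limma) and HIS3 at 0.76 ± 0.13 (adjusted p = 0.00273, limma). BY4741 carries a partly deleted HIS3, and the labels do not give the allele of the mutant. For HIS3, a difference of allele and a difference in level therefore cannot be told apart. Of the regulators, BAS1 rose after shock by 1.08 ± 0.17 (adjusted p = 0.00479). In the other tested comparisons neither BAS1 nor PHO2 passed, with BAS1 at -0.16 ± 0.11 (adjusted p = 0.322) in the mutant in perchlorate and 0.32 ± 0.11 (adjusted p = 0.06) between the strains in perchlorate.

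The transcripts whose pattern was most like the mean of the 10 ADE genes were ranked by Pearson correlation over the 12 libraries among 5165 transcripts with a mean of at least 10 RPM. HIS4, which encodes a multifunctional histidine enzyme, was the first at 0.994. Its mean level was 424 RPM in untreated WT, 114 in WT in perchlorate, 101 in the untreated mutant, 121 in the mutant in perchlorate, 669 in unshocked WT and 515 in shocked WT. Next came the sterol transporter gene AUS1 at 0.966, the open reading frame YDR415C at 0.946, the sulfite pump gene SSU1 at 0.945 and the siderophore transporter gene ENB1 at 0.943. The peptide transporter gene OPT2 at 0.941, LSM7, a subunit of the Lsm complex, at 0.940, and the phosphatase gene LTP1 at 0.931 completed the first 8. AUS1 had means of 34.3 RPM in untreated WT, 17.4 in WT in perchlorate, 11.7 in the untreated mutant, 15.8 in the mutant in perchlorate, 45.1 in unshocked WT and 48.3 in shocked WT. The range of these genes differed, since LTP1 had a mean of 89.0 RPM in its highest group and 54.8 in its lowest. As for the members, the points share libraries, groups, strain differences and differences between the experiments, and the values are a description with no test.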

How the data were processed

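RNA was measured in 12 directional libraries. Sample titles gave the 6 groups of 2. Per the submitters' processing notes, the authors used FastQC, Trim Galore and HISAT2 on the reads; no source used here names the counter, the strand counted or the build. For each of 5 comparisons the authors deposited normalized counts, a signal equal to reads divided by a DESeq2 size factor within that table. The class of each transcript (Down or neutral) was copied from the authors' deposited tables, whose p-values and q-values came from the authors' own DESeq2 comparison. Whole reads were recovered (100.0% of values whole within 0.01 reads); for the 8 libraries in 2 tables, 0 transcripts differed. The deposited values were taken to log2(value + 1), and limma 3.58.1 (R 4.3.3, eBayes with trend, two-sided) was fitted to transcripts whose mean over a comparison's libraries reached 10. A call needed an adjusted p under 0.05 (Benjamini-Hochberg over all transcripts tested). The difference between the 2 perchlorate responses was fitted over 8 libraries, each difference within its own table. edgeR 4.0.16 and DESeq2 1.42.0 on recovered reads, other pseudocounts (0.5 and 10), filters and scalings, and each library left out were the alternatives. Tests were tried on simulated data. Gene names came from RefSeq: 5941 transcripts matched by accession and 26 by locus tag, and 3 are not reported here. The ADE genes and the other lists were chosen with earlier results of these data known. All 10 ADE genes were named throughout, and from each other list up to 3 called genes with the largest log2 fold change, or the one with the smallest p; some called genes were named for fewer than all comparisons.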

Additional observations from a re-analysis of the deposited data

Results flagged for a closer look

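These 6 ADE genes are listed because a term for the difference between the responses of the mutant and of WT to perchlorate, fitted over 8 libraries, was past the call threshold, as it was in the higher direction for 1.89% of all transcripts. The log2 response in the mutant minus that in WT was 2.18 for ADE17, 1.39 for ADE1, 1.13 for ADE13, 1.06 for ADE5,7, 1.00 for ADE12 and 0.80 for ADE6. In each case WT had the lower value in perchlorate and the mutant value lay within 0.38 of no change. For all 6 genes the untreated mutant was already below untreated WT. ADE17 had a mean of 80.1 RPM in the untreated mutant, against 107 in WT in perchlorate and 535 in untreated WT. The WT part of this contrast was known when the genes were chosen, so the values are a description and no test of these genes. The strains also differ in LEU2, MET17, URA3 and mating-type transcripts, whose part in the result was not tested.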

How the results depend on the processing

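No called ADE gene changed direction under any alternative run. In the mutant with perchlorate 1 gene was called lower and 1 higher; scaled by total reads these became 0 and 3, the replicate block (replicate number as a block) gave 2 lower, and leaving out 1 library gave 0 to 1 in each direction. Between the strains in perchlorate 1 was lower; this became 2 with DESeq2, 4 with the replicate block and 1 to 2 with 1 library left out. After shock 3 were lower, and 1 to 3 with 1 library left out. The same-numbered libraries deviated together with correlations of 0.119 to 0.508, but 2 pairs and the labels do not establish a pairing, and the block is given only here. With libraries scaled by TMM over all 12, the summed level moved from 3603 to 3965 RPM in untreated WT, 1888 to 1806 in the untreated mutant, 1967 to 1754 in the mutant in perchlorate and 3980 to 4173 in shocked WT. Some values near 0 that were not called changed sign. Scaled by total reads, ADE8 was at 0.02 in WT in perchlorate; ADE2 at 0.00, ADE5,7 at 0.05 and ADE13 at 0.02 in the mutant in perchlorate; ADE5,7 at 0.09, ADE6 at 0.13 and ADE12 at 0.03 between the strains in perchlorate; and the difference of responses of ADE16 was -0.01. ADE6 between the strains in perchlorate was at 0.00 with TMM and with edgeR. With 1 library left out, values in WT in perchlorate ran from -0.24 to 0.03 for ADE8 and -0.20 to 0.21 for ADE16; in the mutant in perchlorate from -0.23 to 0.06 for ADE2 and -0.08 to 0.00 for ADE5,7. Between the strains in perchlorate they ran from -0.04 to 0.08 for ADE1, -0.12 to 0.00 for ADE5,7 and -0.06 to 0.02 for ADE6. After shock ADE8 ran from -0.06 to 0.19, and the difference of responses of ADE16 from -0.18 to 0.23. A group left with 1 library is assumed to vary like the other. The cause of these moves was not tested. Groups of 2 limit every call, and a p that misses the threshold does not show that values were alike.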
